A study of Homo sapiens and Mus musculus with 21 samples.

Results

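The experiment lowered BAP1 in H2810, a human mesothelioma cell line, with a short hairpin RNA and compared it with a random hairpin in the same line. Its members are the 4 libraries of H2810 in the knockdown count table, of 21 libraries in the series. They were chosen by their labels: 2 libraries with the random hairpin (called random here) and 2 with the hairpin against BAP1 (shBAP1). H2810 is labelled as a line from the pleura, and in the drug experiment of the series it is labelled wildtype for BAP1. The same table holds 4 libraries of MSTO-211H, another mesothelioma line, with the same kinds of hairpin, and a second table holds 4 libraries of H2810 treated with DMSO, the solvent, or with GSK126, which inhibits the histone methyltransferase EZH2. The hairpin sequences, their number, the time after transduction and the drug dose were not given in the sources used here. The labels do not say whether the 2 libraries of a group are separate cultures, so every p-value here measures the spread between these libraries, which may be technical. Cells in one culture cannot be separated in such data, so fewer cells expressing a gene and less RNA per cell cannot be told apart.

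BAP1 is a nuclear deubiquitinase. With an ASXL protein it forms the Polycomb repressive deubiquitinase complex (PR-DUB), which removes ubiquitin from histone H2A and so opposes the ubiquitin ligase complex PRC1. The PRC2 complex, through EZH2, methylates histone H3 at genes that are kept silent. BAP1 is a tumour suppressor that is often lost in mesothelioma.

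The random libraries held 23112712 and 20127486 counts and the shBAP1 libraries 22720632 and 19707304, in the order of replicates 1 and 2 used for all values per library. Levels are CPM, counts scaled to the TMM-adjusted library size. Replicates differed by more than counting noise, with a chi-square per degree of freedom of 16.5 in the random group and 16.3 in the shBAP1 group, against 2.21 and 2.18 in MSTO-211H. Mitochondrial transcripts took 2.48% and 3.7% of counts in the random libraries and 2.26% and 4.03% in the shBAP1 libraries, so replicate 2 was the higher of each group. HMCN1 and DST, long genes among those with the largest shared replicate difference, were higher in replicate 1 than in replicate 2 of both groups. The log2 differences were 1.03 and 1.19 for HMCN1 and 0.99 and 1.01 for DST. Over all genes tested, the replicate differences of the 2 groups correlated at -0.0333. Of the summed squares of log2(CPM + 0.5) around each gene's mean, 81.8% went with the hairpin, 8.8% with the replicate number and 9.43% with neither.

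BAP1 itself (ENSG00000163930, chromosome 3, 52401008 to 52410008 in the columns of the deposited table, which name no build) stood at 117 and 119 CPM in the random libraries and at 13.6 and 20.7 CPM in the shBAP1 libraries. BAP1 was 6.9-fold lower, a log2 fold change of -2.79 ± 0.16 (SE) with an adjusted p of 7.97e-05. All log2 fold changes below are shBAP1 minus random with their standard error, from 2 libraries against 2, and adjusted p-values are from edgeR's quasi-likelihood test with the Benjamini-Hochberg method over all genes tested. A gene is called higher (rose) or lower (fell) where its adjusted p was under 0.05.

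Of 14545 genes tested, 3075 rose (21.1%) and 3205 fell (22%), with a median log2 fold change of -0.03 over all of them. Changes of 2-fold or more were fewer among the rises than among the falls, at 218 against 867. The counts of all rises and all falls, 3075 and 3205, were lower with any 1 library left out, and lowest without random replicate 1. Those of 2-fold changes were not recomputed. Libraries of the 2 groups did not overlap for 10584 genes (72.8%), which is the background for each statement of that kind below, as 21.1% and 22% are for the counts of gene lists. By level, 34.4% of genes in the highest of 4 equal groups by mean CPM rose and 18.3% fell, against 4.12% and 22% in the lowest group. Long noncoding genes rose in 4% and fell in 22.3% of 1723 cases, with a median of -0.30, against 24.3% and 22.6% of 12350 protein-coding genes with a median of 0. The shares of 21.1% and 22% set beside gene lists were not adjusted for level or gene type.

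**Figure D1:**
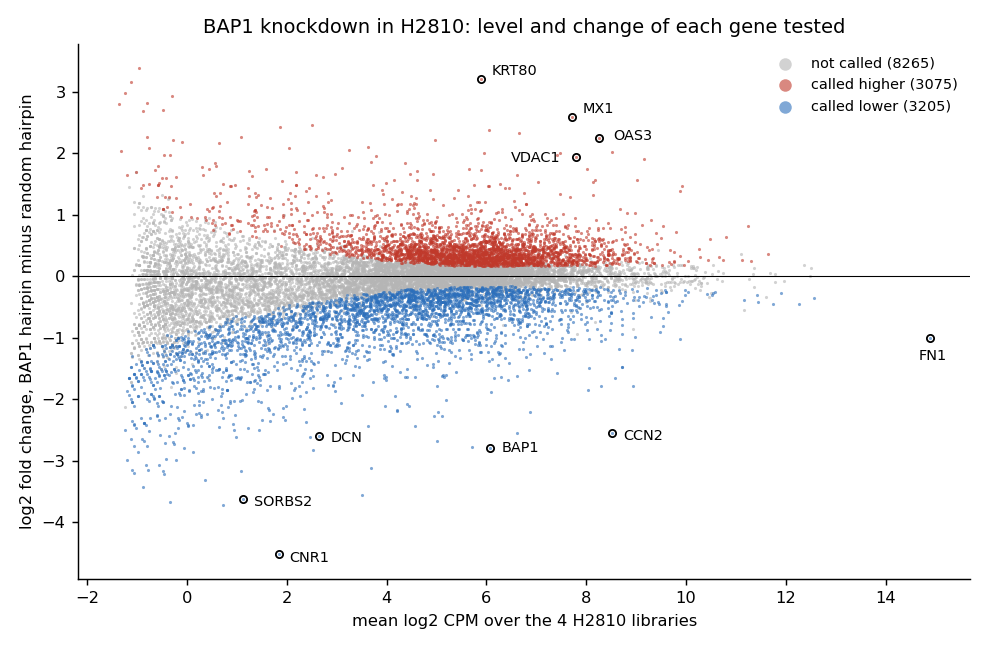
Log2 fold change of shBAP1 against random (vertical axis) by the mean log2 CPM of the 4 libraries (horizontal axis) for every gene tested, with named genes marked. The 3075 genes that rose and the 3205 that fell are coloured, and falls of 2-fold or more reach further from 0 than rises.

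Leaving out genes whose mean log2 CPM was under 1, the largest rise was that of KRT80, a type II keratin on chromosome 12 (52168996 to 52192014), from 11.4 and 11.8 CPM to 108 and 106 CPM, a log2 fold change of 3.21 ± 0.06 (adjusted p = 7.58e-06). MX1, an interferon-induced GTPase that blocks viruses, went from 60.9 and 59.6 CPM to 371 and 354 CPM (2.59 ± 0.06). CLDN1, a claudin of tight junctions, had 1.44 and 2.03 CPM in the random libraries and 9.86 and 9.16 CPM with shBAP1 (2.46 ± 0.19). In each of these 3 genes the 2 shBAP1 libraries were close together. They lay above the random ones, as the choice of these genes required. SERPINB2, an inhibitor of plasminogen activators, rose from 32.7 and 34.1 to 167 and 168 CPM (2.33 ± 0.06). SEMA3F, a secreted semaphorin, rose from 10.9 and 11.4 to 51.7 and 51.3 CPM (2.21 ± 0.07). SDC1, the heparan sulfate proteoglycan syndecan 1, rose by 2.10 on the log2 scale. Of the 15 largest rises, MX1, MX2, OAS2, OAS3, ISG15, IFITM1 and CXCL10 are genes known to be induced by interferon. KRT17, SAA2, HLA-G and IFITM1 have close paralogs, so reads counted for them may come from another member of the family.

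CNR1, the cannabinoid receptor of nerve cells, had 7.29 and 5.88 CPM with the random hairpin and 0.268 and 0.3 CPM with shBAP1, a log2 fold change of -4.52 ± 0.28 (adjusted p = 9.88e-05). OMD, a small leucine-rich proteoglycan of the matrix, fell from 20.7 in both random libraries to 1.7 and 1.8 CPM (-3.56 ± 0.12). GHR, the growth hormone receptor, fell from 3.67 and 3.56 to 0.536 and 0.25 CPM (-3.16 ± 0.31). All 3 were at low levels after knockdown, and their groups did not overlap, as the choice of these genes required. DAAM2, a formin of Wnt signalling, fell from 24 and 21.9 to 2.37 and 2.95 CPM (-3.12 ± 0.13). ABLIM1, which binds actin filaments, fell from 94.7 and 87.4 to 13.5 and 12.9 CPM (-2.78 ± 0.07). MXI1, which competes with MYC for its partner MAX, fell from 52.7 and 57.5 to 7.54 and 9.86 CPM (-2.67 ± 0.12). These genes are spread over several functions, with cytoskeleton, matrix and signalling genes among them. CCN2, a matricellular protein also called CTGF, fell from 617 and 637 to 105 and 111 CPM (-2.54 ± 0.06). LPP, a LIM protein of focal adhesions, had 203 and 133 CPM in the random libraries, a wider gap than most, and 33.2 and 24.2 CPM with shBAP1 (-2.55 ± 0.22). ALPP, the placental alkaline phosphatase, has near-identical paralogs and fell by 2.44 on the log2 scale.

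**Figure D2:**
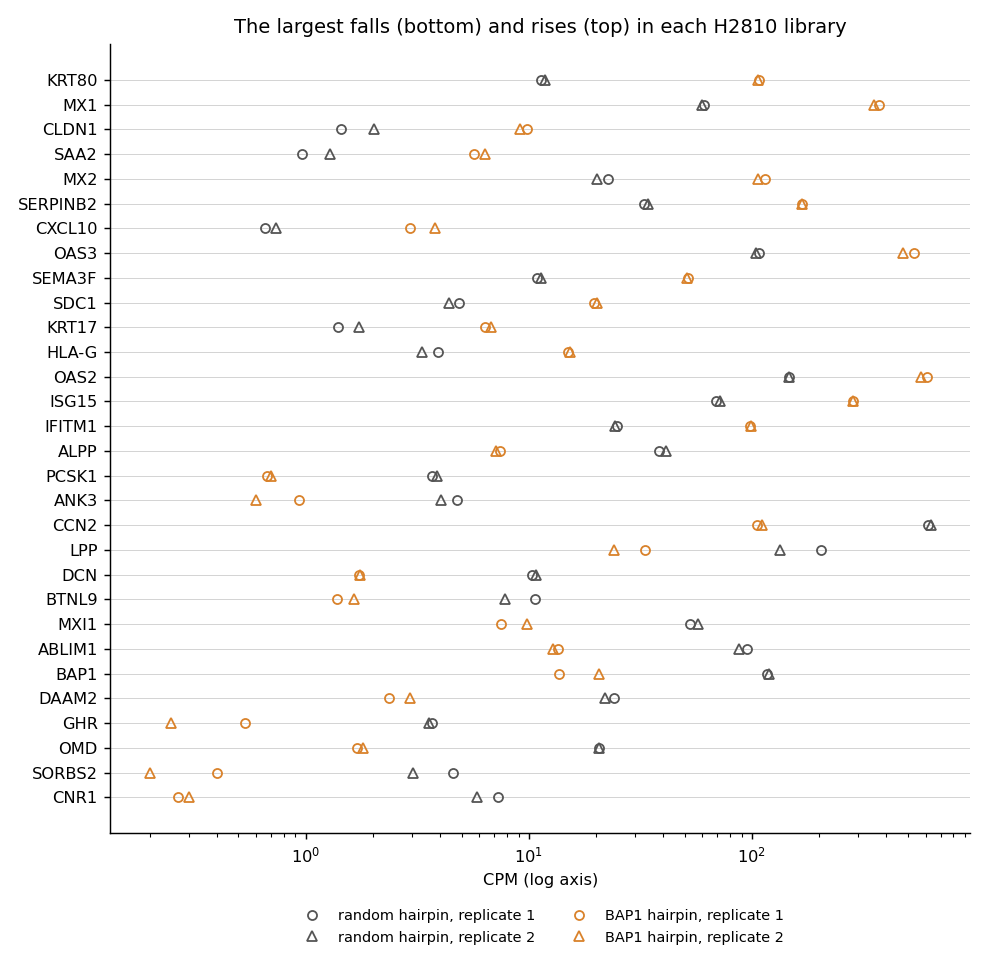
CPM on a log axis in each of the 4 libraries for the 15 largest rises and the 15 largest falls, 1 point per library, coloured by hairpin. Both shBAP1 libraries lie on one side of both random libraries for every gene shown, as the choice of these genes required.

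Interferons are secreted when nucleic acid sensors detect viral or misplaced RNA or DNA. Through their receptors they activate a complex of STAT proteins and IRF9 that binds the interferon-stimulated response element (ISRE) in promoters. Of 50 interferon effectors tested, 47 rose and 1 fell (SP100), against 21.1% and 22% of all genes, with a median log2 fold change of 0.81. The rise was 2-fold or more for 20 of them. To show what these promoters share, the 250 bases before each start in the RefSeq promoters of GRCh38.p14 were searched on both strands. The same region was searched for each element below. The element here was the ISRE core GAAANNGAA, for the 42 effectors that matched by symbol. It was found in 26 of the 42 (61.9%), against 7.06% of 27305 promoters, 5.48% of the promoters of tested genes and 12.3% of those of genes that rose 2-fold or more. A match is a description of letters and not evidence of binding. The windows of 4 genes with large rises are given 5′ to 3′ on the gene's strand with the matches in capitals: OAS3 at chr12:112938306-112938473, ISG15 at chr1:1013359-1013429, IFITM1 at chr11:313975-314033 and RSAD2 at chr2:6865781-6865839, all on the plus strand.
OAS3: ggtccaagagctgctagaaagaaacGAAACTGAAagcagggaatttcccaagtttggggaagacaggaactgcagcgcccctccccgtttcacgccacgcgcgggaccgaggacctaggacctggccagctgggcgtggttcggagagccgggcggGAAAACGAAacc
ISG15: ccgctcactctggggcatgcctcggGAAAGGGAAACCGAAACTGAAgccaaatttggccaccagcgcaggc
IFITM1: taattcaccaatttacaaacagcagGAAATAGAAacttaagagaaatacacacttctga
RSAD2: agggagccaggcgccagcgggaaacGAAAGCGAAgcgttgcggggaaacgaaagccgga

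Each of these 4 genes, chosen for large rises, had both shBAP1 libraries above both random ones. OAS3, which makes the activator of the RNA-degrading enzyme RNase L, went from 108 and 104 to 530 and 477 CPM (2.25 ± 0.07). ISG15, a ubiquitin-like modifier, went from 69.3 and 71.7 to 283 and 284 CPM (2.01 ± 0.06). IFITM1, which hinders viral entry and has close paralogs, went from 24.8 and 24.4 to 98.4 and 98.6 CPM (2.0 ± 0.06). The nearest ISRE match lay 12 bases before the start in OAS3, 40 in IFITM1, 79 in RSAD2 and 101 in ISG15. RSAD2, or viperin, rose from 65.5 and 73.8 to 277 and 268 CPM (1.97 ± 0.07). IFI6, an interferon-induced mitochondrial protein, rose from 114 and 122 to 397 and 399 CPM (1.75 ± 0.06), and OAS1 by 1.64 from 45.6 and 50.2 to 149 and 149 CPM. IFIT1 (1.54 ± 0.07), which binds foreign RNA ends, and IFIT3 (0.68 ± 0.06) rose, while IFIT2 of the same family was not called (-0.01). The other effector that was not called was RNF213 at 0.42.

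Sensors and ligands were measured beside the effectors. Of 24 sensors and ligands, 15 were tested, of which 11 rose and 2 fell. RIGI, the sensor of RNA with a triphosphate end, rose from 159 and 164 to 408 and 396 CPM (1.32 ± 0.06). IFIH1, which senses long double-stranded RNA, rose from 60.8 and 58.4 to 131 and 130 CPM (1.13 ± 0.06). IRF7, the factor that amplifies interferon production, rose from 22.6 and 23.8 to 74.5 and 80.2 CPM (1.74 ± 0.07). In these 3 genes the groups lay far apart, and 2 members of the list fell. MAVS, the adaptor shared by RIGI and IFIH1, fell from 224 and 211 to 166 and 163 CPM (-0.40 ± 0.06). TLR3, the endosomal receptor, was called lower (-0.88 ± 0.21, adjusted p = 0.0139) but not without random replicate 1 or random replicate 2, which left 1 member lower. CGAS, the DNA sensor, rose by 0.36 ± 0.06. ADAR, which edits double-stranded RNA, rose by 0.91 ± 0.08, and the RNA-activated kinase EIF2AK2 by 0.72 ± 0.07. The interferon genes themselves had too few counts to be tested. IFNB1 had 1 and 0 counts in the random libraries and 7 and 5 with shBAP1, and IFNL1 had 0 and 0 against 13 and 6, where a count of 0 allows up to 3 counts.

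The receptor and signalling genes moved less evenly, with 7 of 20 higher and 2 lower. USP18, which removes ISG15 and dampens the receptor, rose from 6.68 and 7.27 to 19.7 and 19.3 CPM (1.49 ± 0.09). STAT2 was called at 0.35 ± 0.11 (adjusted p = 0.0408), but not without random replicate 2 or shBAP1 replicate 2. IRF9, the DNA-binding partner of the STATs, had 2.79 and 2.17 CPM against 2.19 and 3.75 CPM and was not called (0.24 ± 0.30, adjusted p = 0.552). IFNAR1, a chain of the type I receptor, was not called (0.02 ± 0.06). IFNGR1, a chain of the interferon gamma receptor, fell from 244 and 265 to 137 and 140 CPM (-0.88 ± 0.06). The count of rises was 4 without shBAP1 replicate 2, and the falls were 4 without shBAP1 replicate 1 and 1 without any other single library. Of 5 guanylate-binding proteins, induced mainly by interferon gamma, 4 rose and 1 fell, with a median of 0.49. GBP1 rose by 0.87 ± 0.06 from 48.1 and 48.4 to 86 and 90.3 CPM. The gene that fell was GBP2, by 1.01 on the log2 scale from 23.6 and 23.4 to 12 and 11.3 CPM.

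MHC class I molecules present peptides to T cells, and 14 of 23 genes of this route rose. One fell, TAPBPL (-0.23 ± 0.07), which was not called without random replicate 2 or without either shBAP1 library, leaving 0 lower. HLA-B, a classical heavy chain, was not called at 1050 and 1130 against 1200 and 1190 CPM (0.13 ± 0.07, adjusted p = 0.142), nor was HLA-C at 855 and 885 against 874 and 860 CPM (-0.01 ± 0.06). The heavy chain genes are near-identical and polymorphic, so the counting of shared reads is uncertain. TAP1, a subunit of the peptide transporter, rose from 63.3 and 65.4 to 139 and 134 CPM (1.08 ± 0.06), and TAP2 by 0.74 ± 0.07. The immunoproteasome subunits PSMB8 (0.57 ± 0.06) and PSMB9 (0.41 ± 0.07) and the activator subunits PSME1 (0.46 ± 0.07) and PSME2 (0.61 ± 0.06) rose. CD274, which encodes the checkpoint ligand PD-L1, was not called at -0.19.

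NF-kB factors drive inflammatory genes and their own feedback. In that list 11 of 27 rose and 3 fell, with a median of 0.13. SOD2, the mitochondrial superoxide dismutase, rose from 508 and 524 to 1450 and 1390 CPM (1.46 ± 0.06). TRAF1, a receptor adaptor, rose from 17.2 and 18.7 to 42.5 and 42.9 CPM (1.25 ± 0.07), and the adhesion receptor ICAM1 from 13 and 15.5 to 31 and 32.5 CPM (1.16 ± 0.10). TNFAIP3, the feedback inhibitor A20, went the other way, from 251 and 239 to 117 and 127 CPM (-1.01 ± 0.07), and the kinase MAP3K14 fell by 0.56 on the log2 scale. The subunits NFKB2 (0.68 ± 0.06) and RELB (0.61 ± 0.07) rose, whereas RELA at 0.12 and NFKB1 at 0.19 were not called. A kappaB element, searched by name on both strands, was found in 10 of 25 promoters of the list (40%) against 5.05% of all promoters.

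Among cytokines, chemokines and their receptors, 12 of 21 rose and 4 fell, with a median of 0.54. IL6 rose from 5.94 and 5.24 to 20.5 and 23.1 CPM (1.96 ± 0.11). CCL5, a chemokine for T cells, rose from 520 and 555 to 949 and 944 CPM (0.82 ± 0.06). TNFSF10, the death ligand TRAIL, rose from 65.9 and 70.3 to 157 and 149 CPM (1.17 ± 0.06). In all 3, each shBAP1 library was above each random one. CXCL10, which attracts T cells, rose from 0.655 and 0.741 to 2.95 and 3.8 CPM (2.26 ± 0.27), at a low level. CXCL12, a stromal chemokine, fell from 145 and 153 to 48.5 and 48.2 CPM (-1.62 ± 0.06). The macrophage growth factor CSF1 fell from 515 and 531 to 325 and 319 CPM (-0.70 ± 0.06). Complement and acute phase genes had 5 of 18 higher and 9 lower, with 4 of the falls 2-fold or more. C4A (-1.29 ± 0.19) and C4B (-1.08 ± 0.19), near-identical genes of the classical pathway, fell, as did its protease C1S (-0.51 ± 0.06). C3, the central component, rose by 0.54 ± 0.09. SAA1, an acute phase protein with a close paralog, rose from 5.06 and 6.08 to 20.6 and 19.7 CPM (1.86 ± 0.11).

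**Figure D3:**
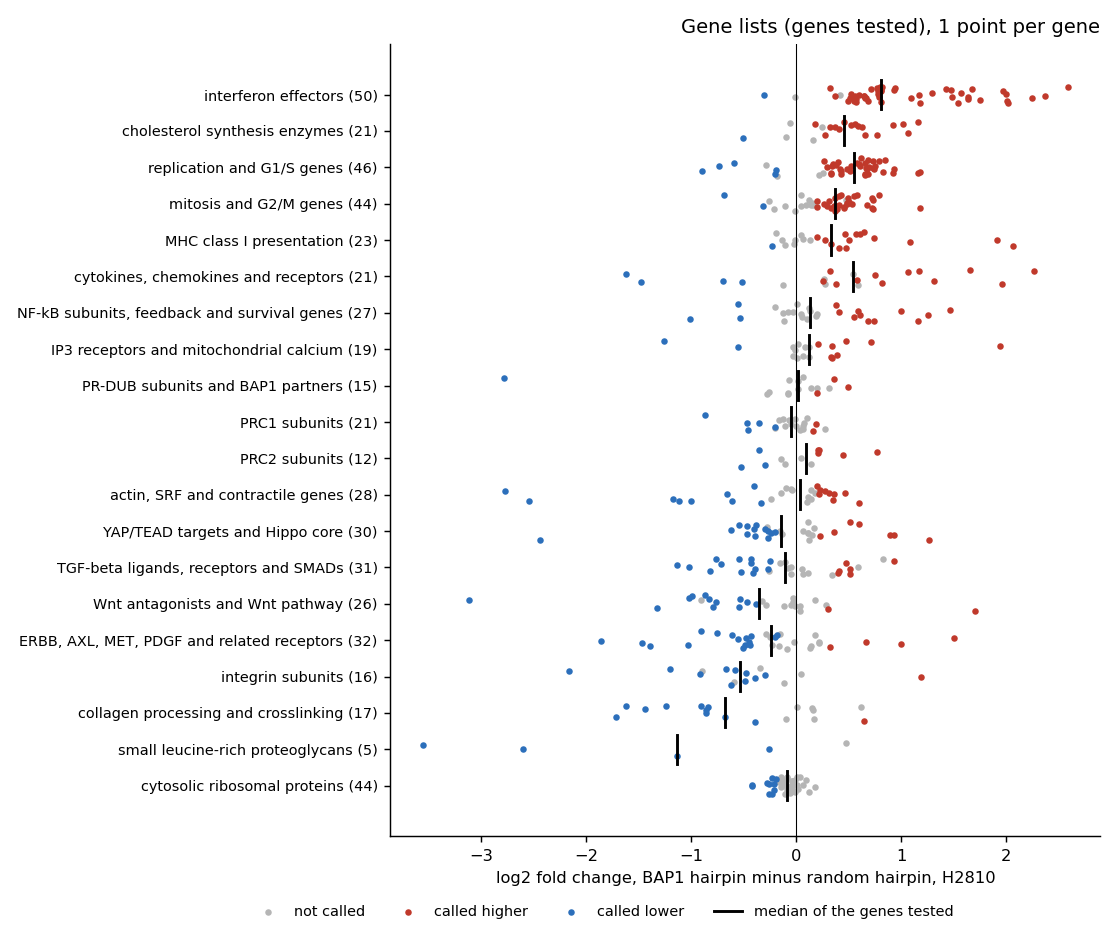
Log2 fold change of shBAP1 against random for each tested member of 20 gene lists, 1 point per gene coloured by its call, with the list's median as a bar and 0 marked. Interferon effectors sit almost wholly above 0 with a median of 0.81, and collagen processing and integrin genes sit mostly below 0 with medians of -0.68 and -0.54.

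Cholesterol is made from acetyl-CoA through the mevalonate pathway, whose genes are switched on by SREBF2 when sterols are scarce. Of 21 enzymes of cholesterol synthesis, 16 rose and 1 fell (TM7SF2, a call lost when any 1 of the 4 libraries was left out), with a median of 0.45. IDI1, which isomerises isopentenyl diphosphate, rose from 28.4 and 34.3 to 71.6 and 68.5 CPM (1.16 ± 0.09). ACAT2, which makes acetoacetyl-CoA, rose from 35.8 and 40.4 to 80.3 and 77.8 CPM (1.06 ± 0.07). HMGCS1, which makes HMG-CoA, rose from 62.2 and 66.3 to 100 and 101 CPM (0.65 ± 0.06). In all 3 genes both shBAP1 libraries were above both random ones. SQLE was not called at 158 and 167 against 185 and 178 CPM (0.16 ± 0.06, adjusted p = 0.0739). SREBF2 itself rose from 69.9 and 68.7 to 145 and 134 CPM (1.01 ± 0.06), and its feedback gene INSIG1 by 0.84 ± 0.05. NR1H2, the liver X receptor beta that is activated by oxysterols, fell from 49.9 and 53.9 to 24.3 and 25.1 CPM (-1.07 ± 0.07), and the exporter ABCA1 was not called at 8.51 and 7.02 against 7.77 and 6.16 CPM (-0.16 ± 0.16). The sterol regulatory element TCACNCCAC was found in 0 of 16 promoters of the enzymes, against 0.875% of all promoters, and in that of SREBF2 at chr22:41832947-41833005, plus strand, where the match begins 133 bases before the start and is shown in capitals.
SREBF2: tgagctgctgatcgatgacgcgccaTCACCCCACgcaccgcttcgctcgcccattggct

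Fatty acid genes were mixed, with 8 of 17 higher and 4 lower. FASN, the fatty acid synthase, rose from 272 and 216 to 496 and 399 CPM (0.87 ± 0.14). SCD, the delta-9 desaturase, rose from 393 and 412 to 740 and 688 CPM (0.83 ± 0.07), and FADS1 from 223 and 228 to 385 and 373 CPM (0.75 ± 0.06). FADS2, the neighbouring desaturase gene, fell from 26.7 and 28.4 to 20.2 and 19 CPM (-0.49 ± 0.07). The fatty acid elongase ELOVL1 fell by 0.69 on the log2 scale. The falls numbered 2 without random replicate 2 or without either shBAP1 library.

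DNA replication genes are controlled by E2F factors and are made before S phase. Of 46 genes of replication and G1/S, 37 rose and 5 fell, with a median of 0.55. The falls numbered 3 without random replicate 2 or without either shBAP1 library. The E2F element TTCCCGCC, searched in both orientations, was found in 9 of 38 promoters of the list (23.7%), against 2.77% of all promoters and 4.47% of those of tested genes. The windows of 4 such genes that rose are given with the matches in either orientation in capitals: UHRF1 at chr19:4909372-4909429 on the plus strand, and GINS2 at chr16:85688955-85689011, MCM3 at chr6:52284743-52284940 and LIG1 at chr19:48170425-48170482 on the minus strand.
UHRF1: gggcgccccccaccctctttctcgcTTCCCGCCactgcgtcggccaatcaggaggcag
GINS2: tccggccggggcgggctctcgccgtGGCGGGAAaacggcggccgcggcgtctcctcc
MCM3: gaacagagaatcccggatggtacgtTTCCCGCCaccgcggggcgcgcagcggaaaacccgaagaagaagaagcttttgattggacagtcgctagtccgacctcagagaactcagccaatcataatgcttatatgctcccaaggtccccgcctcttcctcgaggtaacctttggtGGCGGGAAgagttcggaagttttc
LIG1: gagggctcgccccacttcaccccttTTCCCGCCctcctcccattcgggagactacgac

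UHRF1, which carries DNA methylation over to new strands, rose from 14.8 and 14.4 to 33.4 and 33 CPM (1.18 ± 0.07). GINS2, a subunit of the replicative helicase, rose from 14.1 and 13.9 to 25.8 and 24.1 CPM (0.83 ± 0.08). MCM3, another helicase subunit, rose from 129 and 134 to 202 and 202 CPM (0.62 ± 0.06), and LIG1, which joins Okazaki fragments, by 0.58 ± 0.07. All of MCM2 to MCM7 rose, from 0.60 ± 0.06 for MCM7 to 0.92 ± 0.06 for MCM2, whose level went from 50.7 and 54.2 to 97 and 102 CPM. CDC25A, the phosphatase that activates CDK2, rose from 21.5 and 21.9 to 49.6 and 47.2 CPM (1.16 ± 0.06). E2F1 rose from 28.6 and 26.3 to 42.5 and 45.6 CPM (0.68 ± 0.07). CCNE1, the cyclin of CDK2, fell at low level from 6.11 and 6.57 to 2.99 and 3.8 CPM (-0.90 ± 0.17), and the histone mRNA binding gene SLBP fell from 46.8 and 53.8 to 32 and 34.8 CPM (-0.59 ± 0.09). RRM2, a subunit of ribonucleotide reductase, was called lower at -0.20 ± 0.06, but not without random replicate 2 or without either shBAP1 library.

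Of 44 mitotic genes, 30 rose and 2 fell, with a median of 0.37. NUF2, of the kinetochore, rose from 12.9 and 14.2 to 29.6 and 31.8 CPM (1.18 ± 0.08). CDC25B rose from 242 and 234 to 413 and 408 CPM (0.79 ± 0.06), and CDC20, an activator of the anaphase-promoting complex, from 86.3 and 88.5 to 147 and 142 CPM (0.72 ± 0.06). AURKA rose by 0.72 ± 0.08, PLK1 by 0.53 ± 0.06, CCNB1 by 0.49 ± 0.06 and FOXM1 by 0.58 ± 0.05. Most of these changes were below 2-fold. ANLN, an actin-binding protein of the cleavage furrow, fell from 256 and 247 to 160 and 152 CPM (-0.69 ± 0.06). SPC25 was the other fall (-0.32 ± 0.08) and was not called without random replicate 1, leaving 1 lower. MKI67 was not called, with 359 and 221 CPM against 295 and 191 CPM, so the 2 groups overlapped. Of the regulators, CCND1 rose from 143 and 144 to 253 and 239 CPM (0.78 ± 0.06) and CDKN1B by 0.34 ± 0.05, and RB1 was not called (0.12 ± 0.06). CDKN2A and CDKN2B, the inhibitors often deleted in mesothelioma, had at most 1 count in each library, and their neighbour MTAP at most 3.

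Targets of p53 had 10 higher and 6 lower of 25, with a median of 0.16, and 5 higher without random replicate 1. TP53I3 rose from 4.06 and 4.1 to 9.11 and 9.01 CPM (1.15 ± 0.13) and MDM2 by 0.44 ± 0.06. ZMAT3 fell from 27.2 and 25.8 to 12.9 and 10 CPM (-1.21 ± 0.12) and BTG2 from 18.2 and 21.7 to 9.42 and 8.96 CPM (-1.11 ± 0.11). The list therefore had no common direction. The rises numbered 6 without random replicate 2 or shBAP1 replicate 2. Homologous recombination genes had 11 higher and 3 lower of 28, with a median of 0.22. XRCC3 rose from 17.9 and 19.9 to 33.3 and 35.7 CPM (0.87 ± 0.08). RAD51AP1 fell from 21.2 and 21.6 to 8.3 and 10.6 CPM (-1.18 ± 0.12), and ATM, the kinase of the break response, from 213 and 140 to 104 and 85.6 CPM (-0.90 ± 0.19). BRCA1 (0.20 ± 0.09) and BRCA2 (0.43 ± 0.20), the core genes of this repair route, were not called.

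Matrix genes are abundant in these cells. FN1, which encodes fibronectin, took 4.86% and 3.2% of all counts in the random libraries and 2.39% and 1.63% with shBAP1. The level of FN1 was 49000 and 31800 CPM against 24300 and 16100 CPM (-1.0 ± 0.24, adjusted p = 0.0161), and it was not called by DESeq2 or without random replicate 1. In FN1, replicate 1 was the higher library of each group. The enzymes that modify, cleave and crosslink collagen had 1 higher and 10 lower of 17, with a median of -0.68. P4HA2, a prolyl hydroxylase, fell from 103 and 114 to 46.1 and 46 CPM (-1.24 ± 0.07). PLOD3, a lysyl hydroxylase, fell from 159 and 156 to 84.4 and 84.1 CPM (-0.91 ± 0.05), and LOX, which crosslinks the fibres, from 376 and 388 to 216 and 204 CPM (-0.86 ± 0.06). PLOD2, a relative of PLOD3, was the exception and rose from 165 and 171 to 260 and 262 CPM (0.64 ± 0.06). There were 3 rises in that list without random replicate 2.

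The collagens themselves were less uniform, with 2 of 20 higher and 6 lower (3 lower without shBAP1 replicate 2). COL6A3 fell from 561 and 417 to 166 and 117 CPM (-1.79 ± 0.19), the largest fall of the list. COL1A1, of fibrillar collagen I, fell from 6000 and 5440 to 4490 and 3860 CPM (-0.45 ± 0.09), while its partner COL1A2 had at most 1 count in each library. COL4A1 (0.42 ± 0.08) and COL4A5 (0.51 ± 0.09), of basement membranes, rose. Of the small leucine-rich proteoglycans, which coat collagen fibrils, 4 of 5 tested fell and 9 had too few counts. DCN, or decorin, fell from 10.3 and 10.8 to 1.74 and 1.75 CPM (-2.60 ± 0.15), and ECM2 from 10.5 and 11.3 to 5.53 and 4.3 CPM (-1.14 ± 0.15). BGN, or biglycan, was called at -0.26 ± 0.06 but not without either shBAP1 library or with the offset for transcript length. THBS1, thrombospondin 1, fell from 409 and 375 to 145 and 135 CPM (-1.49 ± 0.07). CCN1, a relative of CCN2, rose from 180 and 179 to 270 and 275 CPM (0.60 ± 0.05) where CCN2 fell. Among the proteases and inhibitors, SERPINE2 fell from 237 and 252 to 118 and 114 CPM (-1.07 ± 0.06), and ADAMTS1 rose from 25 and 22.1 to 65.9 and 58.3 CPM (1.40 ± 0.09).

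Integrins link the matrix to actin, and 10 of 16 subunits fell while 1 rose, with a median of -0.54. ITGA9 fell from 31 and 29.2 to 7.36 and 5.96 CPM (-2.17 ± 0.11), and ITGA1, of a collagen receptor, from 72.5 and 66.5 to 30.6 and 29.8 CPM (-1.20 ± 0.07). ITGB1, the shared beta subunit, fell from 888 and 929 to 667 and 626 CPM (-0.49 ± 0.06). The subunit that rose was ITGB8, which helps activate TGF-beta, from 15.3 and 13 to 35 and 29.5 CPM (1.19 ± 0.11). Actin and contractile genes were split, with 9 of 28 higher and 9 lower and a median of 0.03 (5 higher without shBAP1 replicate 1). ACTN1, an actin crosslinker, rose by 0.60 ± 0.07 and TPM4 by 0.46 ± 0.06. TAGLN, a smooth muscle actin-binding protein, fell from 22.4 and 22.3 to 10.8 and 11.6 CPM (-1.0 ± 0.08), and PALLD from 139 and 140 to 65 and 58.1 CPM (-1.18 ± 0.07). SRF, the transcription factor of these genes, was not called (0.11 ± 0.06), although a CArG box, its element searched by name, was found in 8 of 26 promoters of the list (30.8%) against 1.14% of all promoters.

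YAP1 and its partners of the Hippo pathway are of interest in mesothelioma, where the upstream gene NF2 is often lost. YAP1 fell from 249 and 247 to 176 and 163 CPM (-0.55 ± 0.06) and NF2 was not called (0.11 ± 0.06). In the list of targets and core genes 7 of 30 rose and 13 fell, with a median of -0.15. F3, or tissue factor, fell from 20.1 and 21.4 to 3.48 and 4.15 CPM (-2.44 ± 0.12), in the same direction as CCN2, whereas CCN1 rose and ANKRD1 was not called at 111 and 112 against 100 and 99.2 CPM (-0.16 ± 0.05). The 4 classical targets therefore did not share a direction. CCN2 was counted with the matricellular genes. It is outside the counts and median given here and outside the promoter share that follows. The TEAD element CATTCCA was in 3 of 22 promoters (13.6%) against 3.59% of all. In the TGF-beta list 6 of 31 rose and 13 fell, with a median of -0.11. The ligand genes TGFB1 (0.41 ± 0.06) and TGFB2 (0.93 ± 0.06) rose, while the receptor TGFBR1 fell by 0.53 and the transducer SMAD2 by 0.82 on the log2 scale. All 4 latent binding proteins fell, LTBP1 by 0.77, LTBP2 by 1.14, LTBP3 by 0.72 and LTBP4 by 1.02. ID1 rose by 0.51 ± 0.06, ID3 fell by 0.43, and ID2 was not called (0.05 ± 0.13).

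Of 17 factors and cadherins of the epithelial-mesenchymal transition, 5 rose and 9 fell, with a median of -0.25, against 21.1% and 22% of all genes. SNAI2, a repressor of epithelial genes, fell from 168 and 173 to 87.2 and 84 CPM (-0.99 ± 0.06), while its relative SNAI1 rose at low level from 2.62 and 2.08 to 6.56 and 6.66 CPM (1.48 ± 0.17). ZEB1 fell by 0.37 and VIM, the mesenchymal filament vimentin, from 3130 and 3270 to 2410 and 2420 CPM (-0.41 ± 0.06). CDH1, which encodes E-cadherin, had at most 1 count in each library. CDH11, a mesenchymal cadherin, rose from 279 and 276 to 372 and 354 CPM (0.39 ± 0.06). Of keratins, 7 were tested and 4 rose, with KRT18 at 0.28 ± 0.06 and its partner KRT8 not called (-0.13 ± 0.06). In tight junctions and desmosomes, CLDN1 and the receptor CXADR rose, and 10 of 23 fell (5 without random replicate 2). PKP2 fell from 61.6 and 64 to 31.6 and 33.3 CPM (-0.95 ± 0.06), JAM3 from 87 and 94.1 to 54.2 and 48.5 CPM (-0.82 ± 0.08) and TJP1, the scaffold ZO-1, from 132 and 120 to 94 and 80.2 CPM (-0.53 ± 0.09).

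Receptor tyrosine kinases and their ligands had 4 higher and 16 lower of 32, with a median of -0.24 (2 higher without random replicate 1). PDGFRA fell from 471 and 436 to 282 and 255 CPM (-0.76 ± 0.08) and PDGFRB from 316 and 283 to 223 and 208 CPM (-0.48 ± 0.08). Their ligand PDGFD fell from 42.6 and 46.9 to 16.4 and 15.9 CPM (-1.47 ± 0.08), while PDGFB rose at low level from 0.742 and 0.89 to 2.23 and 2.4 CPM (1.5 ± 0.25). IGF2, a growth factor of fetal tissues, fell from 21.2 and 22.5 to 9.51 and 7.06 CPM (-1.39 ± 0.14), IGFBP3 by 1.03 and INSR by 0.56 on the log2 scale. EGFR was not called, at 243 and 198 against 289 and 209 CPM. Of the FGF receptors, FGFR1 was not called at 120 and 122 against 122 and 122 CPM (0.02 ± 0.05), FGFR4 was not called at 4.63 and 4.65 against 5.94 and 5.86 CPM (0.35 ± 0.14, adjusted p = 0.0796), and FGFR2 had at most 3 counts. ERK output genes had 9 of 25 higher and 6 lower, the latter near the 22% of all genes. DUSP6, a phosphatase of ERK, rose from 18.9 and 19.4 to 31.5 and 37.7 CPM (0.85 ± 0.10) and EPHA2 from 84.8 and 81 to 148 and 148 CPM (0.84 ± 0.06). SPRY1, a feedback inhibitor, fell from 16.9 and 18.5 to 7.01 and 6.96 CPM (-1.34 ± 0.10) and EGR1 from 37.5 and 34.5 to 16.8 and 17.1 CPM (-1.09 ± 0.07).

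In the Wnt list 2 of 26 rose and 12 fell, with a median of -0.36 (7 lower without random replicate 2, and 0 higher without random replicate 1 or shBAP1 replicate 1). The secreted antagonist DKK1 fell from 114 and 124 to 46.4 and 48.5 CPM (-1.33 ± 0.07) and DKK3 from 524 and 547 to 312 and 306 CPM (-0.79 ± 0.06). AXIN2, a feedback target of beta-catenin, fell from 19.9 and 20.6 to 9.51 and 10.9 CPM (-0.99 ± 0.10), as did the receptor FZD7 from 16.6 and 19 to 8.08 and 9.56 CPM (-1.02 ± 0.12). The rises were FZD4 (0.30 ± 0.07) and, at low level, WNT7B, from 0.218 and 0.148 to 0.58 and 0.651 CPM (1.70 ± 0.43). The call of WNT7B was lost by DESeq2 and when any 1 of the 4 libraries was left out, and that of FZD4 without random replicate 1 or shBAP1 replicate 1. The gene of beta-catenin, CTNNB1, was not called (0.03 ± 0.06). Of the semaphorin receptors, NRP2 fell from 99.9 and 88.5 to 44.7 and 41.5 CPM (-1.13 ± 0.08), while NRP1 was not called (-0.04 ± 0.08).

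Mitochondrial and calcium genes were examined because BAP1 is also known to act at the endoplasmic reticulum on the IP3 receptor ITPR3. ITPR3 was not called, at 178 and 142 against 170 and 164 CPM (0.06 ± 0.11, adjusted p = 0.653). VDAC1, the channel of the outer mitochondrial membrane, rose from 89.2 and 95.1 to 358 and 350 CPM (1.94 ± 0.06). ORAI3, a calcium channel of the cell surface, fell from 9.52 and 8.5 to 3.79 and 3.75 CPM (-1.26 ± 0.14). The other 2 VDAC genes changed far less, VDAC3 at 0.34 ± 0.06 and VDAC2, which was not called, at 0.08. Respiratory complex subunits had 17 of 35 higher and 0 lower, with a median of 0.20 (9 higher without random replicate 1). NDUFS8 rose by 0.62 ± 0.06 and NDUFA2 by 0.53 ± 0.08, and all other rises of the list were smaller. In glycolysis and hypoxia, 12 of 32 rose and 9 fell. The lactate exporter SLC16A3 rose from 193 and 194 to 333 and 338 CPM (0.79 ± 0.05), PFKP by 0.53 ± 0.06 and HK1 by 0.49 ± 0.06. The hypoxia targets NDRG1 (271 and 284 against 138 and 136 CPM, -1.02 ± 0.06) and CA12 (51.5 and 54.5 against 23.3 and 22.7 CPM, -1.20 ± 0.06) fell, as did HIF1A itself (-0.33 ± 0.06).

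Polyamine and arginine genes had 8 of 13 higher and 0 lower (5 higher without random replicate 1). ODC1, the rate-limiting decarboxylase, rose from 118 and 124 to 200 and 193 CPM (0.70 ± 0.06) and the spermidine synthase SRM from 121 and 127 to 202 and 198 CPM (0.69 ± 0.06). ASS1, the argininosuccinate synthase, had 0 counts in all 4 libraries, which allows up to 3 counts in each. Cytosolic ribosomal proteins had 0 higher and 10 lower of 44, the latter near the 22% of all genes, with a median of -0.09 and none past -0.42, and the falls were 2 without either shBAP1 library and 5 without random replicate 2. Lysosomal genes had 2 higher and 11 lower of 30, with a median of -0.12. ASAH1, the acid ceramidase, fell from 140 and 146 to 81.3 and 81.7 CPM (-0.81 ± 0.06) and NPC2, a lysosomal cholesterol carrier, from 209 and 225 to 137 and 129 CPM (-0.71 ± 0.07). In glutathione and iron metabolism, GCLC, the rate-limiting enzyme of glutathione synthesis, fell from 459 and 465 to 248 and 253 CPM (-0.88 ± 0.06), while TXNRD1, the thioredoxin reductase, rose from 1710 and 1790 to 3100 and 3050 CPM (0.81 ± 0.06). The cystine carrier SLC7A11 was not called at 641 and 555 against 629 and 502 CPM (-0.08 ± 0.12). ATF4 was not called (0.00 ± 0.06), and of its list 11 of 31 rose and 3 fell, with ATF5 at 0.89 ± 0.05 and the chaperone gene HSP90B1 not called at -0.08.

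Of 15 genes of PR-DUB and partners of BAP1, 3 rose and 1 fell, which was BAP1 itself (2 fell without either shBAP1 library, and 6 rose with the offset for transcript length). The share that rose was near the 21.1% of all genes. FOXK2, a DNA-binding partner, rose from 82 and 85.8 to 111 and 104 CPM (0.36 ± 0.06), and the demethylase KDM1B from 26.5 and 25.9 to 36.8 and 36.6 CPM (0.49 ± 0.06). ASXL1 was not called at 204 and 176 against 193 and 192 CPM (0.02 ± 0.08), ASXL2 was not called at -0.28 ± 0.13, and ASXL3 had 0 counts. Of PRC1, whose product PR-DUB removes, the ligase RNF2 fell from 21.6 and 19.7 to 15.2 and 14.8 CPM (-0.46 ± 0.08) and PHC3 from 145 and 111 to 77.4 and 62.9 CPM (-0.87 ± 0.14). In all, 2 of 21 PRC1 genes rose and 5 fell, the latter near the 22% of all genes. Without random replicate 1 or random replicate 2 there were 0 and 2, without shBAP1 replicate 1 there were 0 and 3, and without shBAP1 replicate 2 there was 1 rise. Of the PRC2 core, SUZ12 rose by 0.22 ± 0.06 and EZH2 was called at 0.21 ± 0.06 (37.4 and 37.5 against 43.5 and 42.9 CPM) a call lost by DESeq2 and when any 1 of the 4 libraries was left out. In all, 5 of 12 PRC2 genes rose and 3 fell, with log2 fold changes from -0.53 to 0.77 and a median of 0.09. HOX genes, classical Polycomb targets, had 5 higher and 7 lower of 31, with a median of -0.12, near or below the 21.1% and 22% of all genes. HOXC13 fell from 12 and 13 to 6.38 and 4.86 CPM (-1.15 ± 0.15) and HOXB4 rose from 24.3 and 21.4 to 34.4 and 35.9 CPM (0.62 ± 0.08). Without random replicate 1 the HOX counts were 3 higher and 2 lower, and the falls were 4 without random replicate 2 and 3 without shBAP1 replicate 1.

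Markers were checked against the labelled cell type. Among mesothelial markers, CALB2, or calretinin, rose from 19.2 and 21.6 to 37.3 and 37.2 CPM (0.87 ± 0.08) and WT1 from 25.2 and 25.8 to 32.3 and 34.5 CPM (0.39 ± 0.07). MSLN, or mesothelin, had 2.44 and 1.78 against 1.65 and 1.35 CPM and was not called, and UPK3B and KRT5 had at most 2 counts. In this list 3 of 17 rose and 5 fell, against 21.1% and 22% of all genes, with a median of -0.04. CALB2 and WT1 are among the rises. The falls are not named here, and 1 of them was 2-fold or more. The fibroblast list, which shares PDGFRA, DCN, COL1A1 and CXCL12 with the groups above, had 2 of 13 higher and 9 lower, and its summed level was 11400 and 10800 CPM in the random libraries against 8860 and 7940 CPM with shBAP1 (1 higher without random replicate 2). LUM was at 0 counts in all 4 libraries. None of the 10 leukocyte markers had enough counts to be tested beside the interferon and chemokine genes that rose. CD3E and LYZ were at 0 counts in all 4 libraries, and PTPRC, the pan-leukocyte marker CD45, had 7 and 10 counts against 6 and 8. Endothelial markers had a summed level of 71.3 and 70 against 73.5 and 76.7 CPM, with CDH5 and CLDN5 at 0.

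The effect of the hairpin against BAP1 was compared with that in MSTO-211H, as the effect in MSTO-211H minus that in H2810. An interaction term was fitted over the 8 knockdown libraries. The effects in MSTO-211H come from that fit, while those in H2810 come from its own 4 libraries. The 8-library fit gave 3576 rises and 3701 falls in H2810. It takes 1 spread per gene for both lines, although H2810 replicates differed more. With limma-voom and 1 weight per line, the effects differed for 1821 genes upward and 2630 downward. BAP1 fell by 2.61 in MSTO-211H, and the difference was 0.18 (adjusted p = 0.532). In MSTO-211H 3440 of 15872 genes rose (21.7%) and 3887 fell (24.5%), and the effects differed for 1783 genes upward (11.2%) and 2614 downward (16.5%), with 1177 upward without MSTO-211H random replicate 2. Of the 50 interferon effectors, 14 rose and 22 fell in MSTO-211H, and the effect was lower there for 39 and higher for 2. MX1 had a mean of 3.19 CPM in MSTO-211H with the random hairpin and 1.37 with shBAP1 (-1.23), a difference of -3.82 ± 0.20 from H2810. PARP9 fell by 2.23 in MSTO-211H and rose by 0.65 in H2810, a difference of -2.89 (adjusted p = 1.61e-07). OAS2 and RSAD2 were exceptions, rising in both lines, OAS2 by 2.20 and 2.02 and RSAD2 by 1.54 and 1.97, with no difference called (adjusted p = 0.698 and 0.543).

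Mitotic genes gave a similar contrast: in MSTO-211H 3 rose and 24 fell of 44, with an effect lower there for 36 and higher for 1. NUF2 rose by 1.18 in H2810 and fell by 0.57 in MSTO-211H, a difference of -1.75 (adjusted p = 6.53e-07). Replication genes did not follow this pattern, with 35 of 46 higher in MSTO-211H and 37 in H2810, and CDC25A at 1.20 and 1.16. For them the effect was higher in MSTO-211H for 8 and lower for 13. Cholesterol enzymes rose in 15 of 21 cases there. Among falls, MXI1 (-2.33 against -2.67) and DKK1 (-1.34 against -1.33) fell in both lines, with differences of 0.34 (adjusted p = 0.124) and -0.01 (adjusted p = 0.947). Of the 31 HOX genes, 22 fell and 0 rose in MSTO-211H, where 11 had a lower effect than in H2810 and 1 a higher one. VDAC1 rose by 0.40 there, a difference of -1.54 from H2810.

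**Figure D4:**
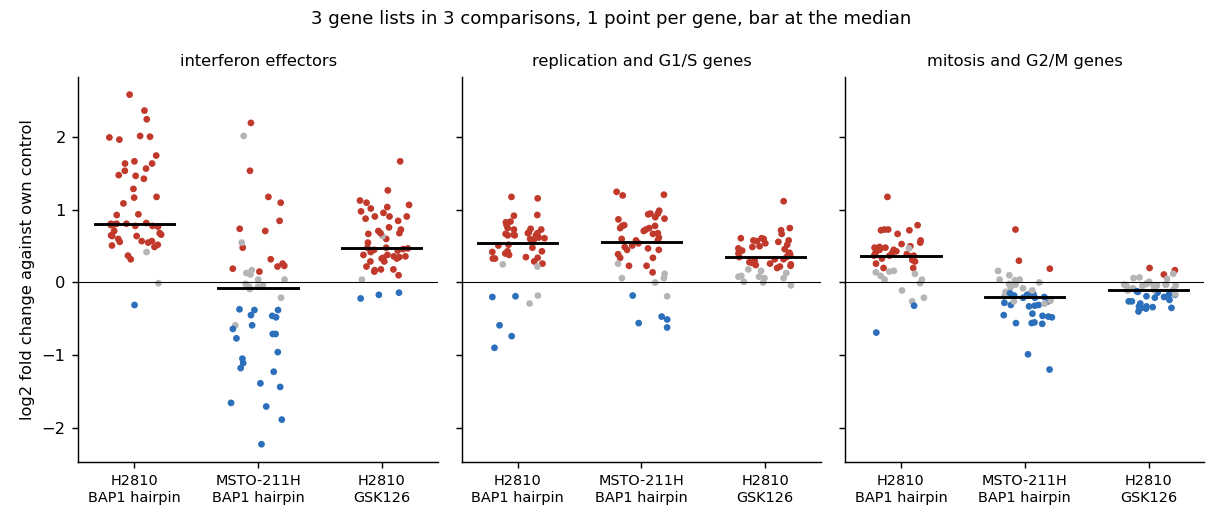
Log2 fold change of each tested interferon effector, replication gene and mitotic gene in H2810 with shBAP1, in MSTO-211H with shBAP1 and in H2810 with GSK126, 1 point per gene with the list's median as a bar. The interferon medians are 0.81, -0.08 and 0.47, the replication medians 0.55, 0.56 and 0.35 and the mitotic medians 0.37, -0.20 and -0.10.

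GSK126 in H2810 gives a second perturbation of the same line, from libraries in another table, with other controls. It was fitted on its own 4 libraries, and no test was made between the 2 experiments. With GSK126, 2639 of 14535 genes rose (18.2%) and 2176 fell (15%), and these counts were 1737 and 1137 without GSK126 replicate 1 and 1697 and 1206 without GSK126 replicate 2. Of the 50 interferon effectors, 45 rose and 3 fell, with MX1 at 1.27 ± 0.04, MX2 at 1.67 and IFI6 at 1.07. Both perturbations thus had higher levels of most of these genes, with a median of 0.47 for GSK126. SERPINB2 rose in both, by 2.33 with shBAP1 and 1.92 with GSK126, and 35 of 46 replication genes rose and 0 fell with GSK126. With GSK126, 3 mitotic genes rose and 19 fell, and of 30 lysosomal genes 24 rose and 1 fell, against 2 and 11 with shBAP1. Ribosomal protein genes had lower medians in both, with 44 of 44 falling with GSK126 (median -0.22) and 10 with shBAP1 (median -0.09). GPNMB, a lysosomal membrane protein, rose by 2.16 with GSK126 and fell by 0.96 with shBAP1, and ABCA1 rose by 2.38 with GSK126. KRT80 fell by 0.31 with GSK126 and DAAM2 rose by 1.5. BAP1 itself was not called with GSK126 (-0.04, adjusted p = 0.4). Of 3052 genes that rose with shBAP1 and were tested in both, 653 rose (21.4%) and 577 fell (18.9%) with GSK126, and of 3132 that fell, 769 rose (24.6%) and 477 fell (15.2%). Those overlaps are 26%, 26.6%, 30.6% and 22% of the GSK126 calls in the same order, and 17.8% of all genes tested in both rose with GSK126 and 15.4% fell.

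Gene length went with the direction of change. Protein-coding genes were split into 5 equal groups by the span from start to end, with median spans of 6.13, 17.2, 34.6, 67.3 and 168 kb. The share that fell was 16.9%, 20.2%, 21.1%, 24.1% and 30.6% from the shortest to the longest group, and the share that rose was 26.8%, 26.8%, 25.3%, 25.7% and 16.7%. Falls of 2-fold or more numbered 206 in the longest group and 101 in the shortest. The medians of the log2 fold change were 0.05 in the shortest and -0.10 in the longest group, and MSTO-211H had 0.05 and -0.08, against -0.01 and 0.05 with GSK126. By exon length the medians went from 0.06 to -0.05, and the difference between replicates 1 and 2 also moved with it, from -0.06 to 0.09 in the random group and from 0.00 to 0.08 in the shBAP1 group. A fit with an offset for transcript length, chosen after the data were seen, gave 3561 genes higher and 3122 lower. The shares by span were not recomputed in it, and the part of length in the results was not tested.

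**Figure D5:**
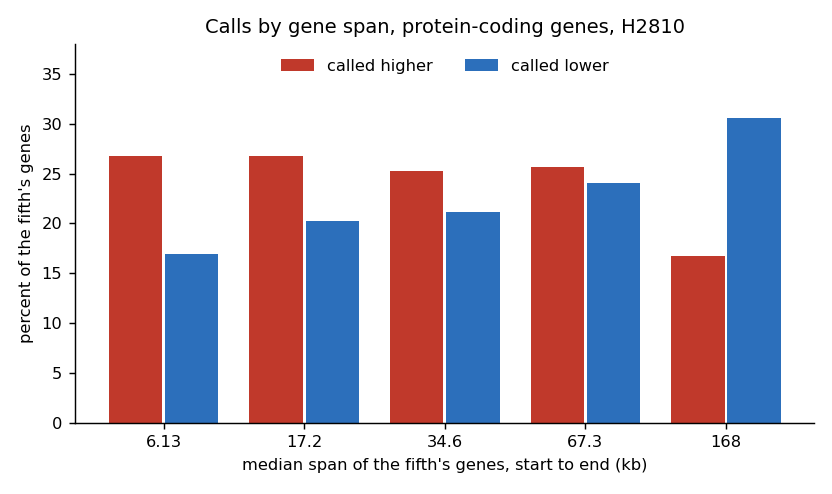
Percent of protein-coding genes that rose and that fell with shBAP1 in H2810 (vertical axis, from 0) in 5 equal groups by genomic span, labelled with their median span in kb. The share that fell goes from 16.9% to 30.6% and the share that rose from 26.8% to 16.7% between the shortest and the longest group.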

How the data were processed

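RNA was sequenced from the 4 H2810 libraries with a random or a BAP1 hairpin, the 4 of MSTO-211H and the 4 of H2810 with DMSO or GSK126. The authors deposited raw counts per gene, whole numbers that were not normalized, in 2 tables. The tools DESeq2, HTSeq, TopHat and TopHat2 2.0.12 and the builds mm10 and GRCm38 stand in the submitters' processing notes with no role, and the human build was not given in the sources used here. Gene coordinates are the deposited table's own. Symbols matched 60418 of 60674 identifiers, 1 line naming no gene held 0 counts and was left out, and 0 sample columns were unmapped.

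Genes were kept by filterByExpr, scaled by TMM and tested with edgeR 4.0.16 (R 4.3.3, limma 3.58.1) by the quasi-likelihood test. The threshold was a Benjamini-Hochberg adjusted p of 0.05. The H2810 knockdown and GSK126 comparisons were each fitted on their own 4 libraries. The effect in MSTO-211H and the difference between lines were fitted on the 8 knockdown libraries. Standard errors are the absolute log2 fold change over the square root of F. The scripts were tested on simulated data. Named genes are BAP1 and, from called genes that have a symbol, non-overlapping groups and a mean log2 CPM no lower than 1, the 15 that rose most and the 15 that fell most, and, in each of 51 lists, key members and the called members that changed most. Some further list members were named after their values were seen. The lists hold 1338 entries, all found. The members and lists were chosen with earlier results of these data known. Total counts per library were 19707304 to 23112712 in H2810 knockdown, and limits for a count of 0 (3 counts) cover counting error only. Alternatives were RLE scaling, no filter, DESeq2 1.42.0, a minimum of 50 counts in 2 libraries, limma-voom and a replicate block. Others were all 8 libraries in 1 fit, 1 weight per line for the difference between lines, and 1 library left out. An offset for transcript length was chosen after seeing the data. Promoter sequences are from RefSeq, GRCh38.p14. Some list members that were tested and counted are not reported by name here.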

Additional observations from a re-analysis of the deposited data

Results flagged for a closer look

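Of the 30 genes with the largest changes in H2810, 16 had an effect of the BAP1 hairpin that differed between the lines by edgeR's interaction test, 11 lower and 5 higher in MSTO-211H. The values are log2 differences, MSTO-211H minus H2810. Those of interferon-induced genes were -3.82 for MX1, -2.63 for OAS3, -2.27 for MX2, -1.16 for IFITM1 and -0.83 for ISG15. In MSTO-211H the mean level of MX1 was 3.19 CPM with the random and 1.37 CPM with the BAP1 hairpin, and that of OAS3 was 17.8 and 13.7 CPM. ISG15 rose there from 9.92 to 22.5 CPM (1.18, adjusted p = 1.08e-06) and IFITM1 from 0.625 to 1.13 CPM (0.85, adjusted p = 0.0357), and MX2 had 0.769 and 0.831 CPM, so MX2 and IFITM1 were near or below 1 CPM. Epithelial and surface genes gave -1.81 for KRT80, -1.71 for CLDN1, -1.67 for KRT17 and -2.04 for SDC1. KRT80 rose in both lines, from 424 to 1120 CPM in MSTO-211H. SERPINB2 differed by -2.16 and SEMA3F by -1.25. CLDN1 (0.76), KRT17 (0.41), SEMA3F (0.96) and SERPINB2 (0.17) also rose in MSTO-211H, by less, and SDC1 was not called there (0.07). Among the falls of H2810, the differences were 3.05 for OMD, 4.56 for GHR, 1.33 for ABLIM1, 0.54 for CCN2 and 1.55 for ALPP. ABLIM1 (-1.45), CCN2 (-2) and ALPP (-0.9) also fell in MSTO-211H, by less. There OMD was not called (-0.51) and GHR rose (1.41). OMD and GHR were below 1 CPM in MSTO-211H with either hairpin, at 0.264 and 0.188 CPM for OMD and 0.36 and 0.96 CPM for GHR.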

How the results depend on the processing

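BAP1 kept its call under every alternative run, from -3.1 to -2.5 with 1 library left out. Leaving out 1 library gave 2003 to 2723 genes higher and 1950 to 2658 lower in H2810, 1177 to 1733 and 1860 to 2830 for the difference between lines, and 1697 to 2661 and 1137 to 2486 for GSK126. DESeq2 gave 1334 higher and 977 lower for GSK126, and the cause was not tested. In H2810 it gave 2549 and 2158. The other alternatives kept these counts within 1.5 times. No gene followed by name reversed. Of 434 such calls in H2810, DESeq2 lost 45, leaving out 1 library 59 to 67, and RLE scaling 7. Replicates were 2 per group, which limits the precision of each value.

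The labels give replicate numbers 1 and 2 in each group but do not say that they pair the samples, and the replicate differences of the 2 groups correlated at -0.0333 across genes. With the replicate block 3577 genes were higher and 3825 lower in H2810, 1874 and 2657 differed between lines, and GSK126 gave 2922 and 2562. In H2810 it gave 48 of 50 interferon effectors higher and 1 lower, against 47 and 1 without it.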
